A study of Rattus norvegicus with 4 samples.

Results

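The BCL-2 family decides whether the outer membrane of the mitochondrion stays closed or opens to release cytochrome c, the step that commits a cell to apoptosis. The 10 genes described here were chosen by symbol from the 17778 rows of the deposited gene table, where each had 1 row. They fall into 3 roles. The 3 survival genes (Bcl2, Bcl2l1 and Mcl1) encode proteins that hold the pore-forming proteins in check, the 2 effector genes (Bax and Bak1) encode the pore formers, and the 5 BH3-only genes (Bbc3, Pmaip1, Bcl2l11, Bid and Bad) encode stress sensors that bind the survival proteins or activate the effectors. In the peripheral nerve this machinery bears on whether Schwann cells survive loss of contact with an axon.

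The cells were RSC96, an established line of rat Schwann cells, at generation 4. After serum had been withdrawn overnight, the IL-22 group (2 libraries) received recombinant rat IL-22 at 100 ng/ml for 48 h, and the control group (2 libraries) received its solvent, 0.1% bovine serum albumin; how long control cells were kept in it is not stated in the labels. IL-22 belongs to the IL-10 cytokine family and acts through STAT3, and the series concerns its effect on Schwann cell proliferation and nerve regeneration. Nothing in the labels says that the libraries came from separate cultures, so the p-values reflect the spread between libraries alone, and that spread may be technical.

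Levels are in FPKM, fragments scaled by transcript length and library size, so different genes can be set side by side only roughly. The annotation behind the lengths is not stated, and other biases between genes were not checked. Judged by the steps between low values, the depth of IL-22 libraries 1 and 2 was 1.08 and 1.09 times that of control library 1, and that of control library 2 was 1.28 times. Absolute depth is unknown. Of 10 Schwann cell markers, 7 lay under 1 FPKM in every library, among them Sox10, S100b and Ngfr, and of these Cdh19 and Mbp were listed at 0 throughout. The summed level of the 10 markers was 43.5 and 45.2 FPKM with IL-22 and 21.4 and 23.2 FPKM in controls, most of it from Pmp22, which was higher with IL-22 (1.08, limma adjusted p = 8.19e-06). Gfap, another of these markers, was lower, at 0.496 and 0.810 FPKM with IL-22 and 1.76 and 1.60 FPKM in controls (-0.70, limma adjusted p = 0.00792). Gfap reached the mean of 1 FPKM needed for testing only through the controls. Without control library 1 it fell under that mean and was not tested. Erbb3 was higher, at 1.51 and 1.62 FPKM with IL-22 and 0.819 and 0.685 FPKM in controls (0.55, limma adjusted p = 0.0181). It reached that mean only through the IL-22 libraries. Of 5 macrophage and leukocyte markers measured, 3 lay under 1 FPKM in every library, and the 5 summed to 6.25 and 3.80 FPKM with IL-22 and 4.47 and 4.19 FPKM in controls. The 3 endothelial markers stayed under 1 FPKM. The 6 fibroblast markers summed to 258 and 258 FPKM with IL-22 and 220 and 239 FPKM in controls, with Dcn and Lum at 0 and Thy1 supplying most of the sum. Among them Col1a1 was lower (-0.55, limma adjusted p = 0.00446). Pdgfra was higher (0.33, limma adjusted p = 0.0164), and so was Thy1 (0.19, limma adjusted p = 0.0356). The calls of Thy1 and Erbb3 were not followed under the alternatives. The calls of Gfap, Col1a1 and Pdgfra were each lost on leaving out 1 library or another, Pdgfra without IL-22 library 1, IL-22 library 2 or control library 2, Gfap without IL-22 library 1 and Col1a1 without control library 1. The part of other cells in the results was not tested.

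With IL-22, mRNA of 2 survival genes and 3 BH3-only genes rose, while mRNA of both effector genes and of the BH3-only gene Bad fell. Each difference is the mean log2(FPKM + 1) with IL-22 minus that of controls, given with its limma standard error, and a gene passed when its Benjamini-Hochberg adjusted p over all 9485 tested rows was under 0.05. All 10 genes reached the minimum mean of 1 FPKM for testing. By this rule 5 of the 10 were higher and 3 were lower, and 2 did not pass (Bcl2 and Bcl2l11). Of all tested genes 27.6% were higher and 30.8% lower, or 58.4% in either direction, so a call by itself was common in these libraries. The groups did not overlap for 9 of the 10 genes, against 80.1% of all tested genes. The median difference was 0.32 over the 10 genes and -0.02 over all tested genes. In RNA from bulk cells, a change in the share of cells that express a gene and a change in its RNA per cell cannot be told apart.

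**Figure D1:**
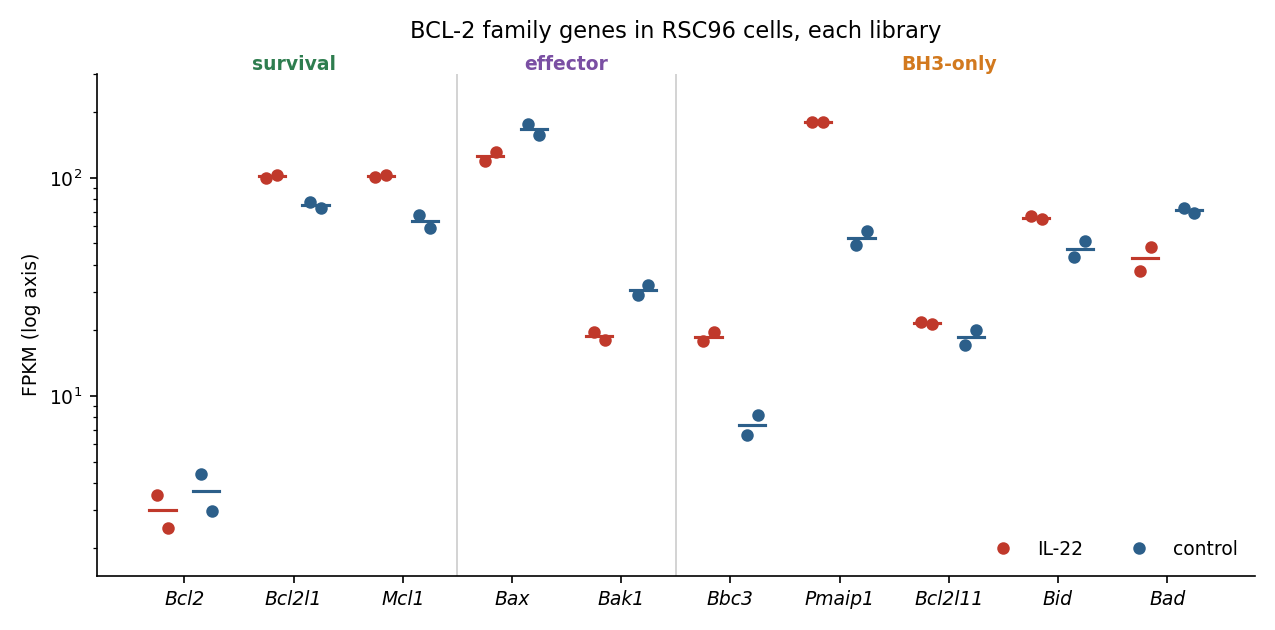
FPKM (log axis) of each BCL-2 family gene in the 2 IL-22 libraries (red, left of each pair) and the 2 control libraries (blue), grouped by role; dots are libraries and bars are group means. Pmaip1 lay near 180 FPKM in both IL-22 libraries, above every control library of any member, while Bax, Bak1 and Bad lay lower with IL-22 than in controls and the groups of Bcl2 overlapped.

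The order of the 10 mRNAs by level differed between the groups. With IL-22, Pmaip1 stood first at 180 ± 1.26 FPKM (SD, n = 2), followed by Bax at 125 ± 8.99 FPKM, Mcl1 at 102 ± 1.48 FPKM and Bcl2l1 at 101 ± 2.37 FPKM. In controls, Bax stood first at 167 ± 13.5 FPKM, followed by Bcl2l1 at 74.8 ± 3.18 FPKM, Bad at 71.1 ± 2.61 FPKM and Mcl1 at 63.2 ± 6.55 FPKM, with Pmaip1 next at 53.1 ± 5.19 FPKM. Neighbours whose libraries overlapped, and whose order is therefore not set, were Mcl1 and Bcl2l1 and also Bak1 and Bbc3 with IL-22, and Bcl2l1 and Bad and also Pmaip1 and Bid in controls. Bcl2 was the lowest of the 10 in both groups.

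Among the survival genes, Mcl1 had the largest difference. It encodes a short-lived protein that restrains BAK1 and is the main partner of NOXA, the product of Pmaip1. Mcl1 measured 100.6 and 103 FPKM with IL-22, against 67.8 and 58.6 FPKM in controls. Both IL-22 libraries lay above both controls, a 1.61-fold higher mean (0.68 ± 0.08, limma adjusted p = 0.00011). Bcl2l1, whose main product BCL-XL restrains BAX and BAK1, measured 99.7 and 103 FPKM with IL-22, against 77.0 and 72.5 FPKM in controls. The groups were again apart, with a 1.36-fold higher mean (0.44 ± 0.07, limma adjusted p = 0.0005). Bcl2, the founding member of the family, measured 3.51 and 2.49 FPKM with IL-22 and 4.41 and 2.96 FPKM in controls. Its groups overlapped and its difference did not pass (-0.22 ± 0.19, 95% interval -0.64 to 0.20, limma adjusted p = 0.331), an interval wide enough to hold a fall as large as the rise of Bcl2l1. The size of this difference rests on single libraries, as it was -0.41 without IL-22 library 1, -0.04 without IL-22 library 2, 0.003 without control library 1 and -0.45 without control library 2. Bcl2 supplied 1.72% and 1.19% of the summed survival FPKM with IL-22 and 2.95% and 2.21% in controls. Values per gene do not separate splice forms, which matters for Bcl2l1 and Mcl1, since both also have short forms that promote apoptosis.

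Promoter windows of the 250 bases before the annotated start were taken from RefSeq (GRCr8) for the 8 members that had one. They are shown for Bcl2l1 and Mcl1, the survival genes that rose, and for Pmaip1 and Bad, the BH3-only genes with the largest rise and the only fall. Capitals mark TTCNNNGAA, the core letters of STAT sites, TGATGNAA, the core of the C/EBP-ATF composite element that ATF4 binds, and TGACGTNA, a cyclic AMP response element form bound by ATF and CREB factors. All were searched on both strands, with no overlap between matches in these windows, and TGACGTNA was chosen after the Pmaip1 window had been read. Of 33469 such windows in the table, TTCNNNGAA occurred in 7.67%, TGATGNAA in 3.4% and TGACGTNA in 2.88%.
Bcl2l1, GRCr8 chr3:161763386-161763635, minus strand: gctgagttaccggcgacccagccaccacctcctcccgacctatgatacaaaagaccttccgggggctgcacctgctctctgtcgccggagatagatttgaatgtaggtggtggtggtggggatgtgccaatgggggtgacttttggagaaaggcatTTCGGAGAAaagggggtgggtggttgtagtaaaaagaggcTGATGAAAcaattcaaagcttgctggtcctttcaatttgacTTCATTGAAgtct
Mcl1, GRCr8 chr2:185907918-185908167, plus strand: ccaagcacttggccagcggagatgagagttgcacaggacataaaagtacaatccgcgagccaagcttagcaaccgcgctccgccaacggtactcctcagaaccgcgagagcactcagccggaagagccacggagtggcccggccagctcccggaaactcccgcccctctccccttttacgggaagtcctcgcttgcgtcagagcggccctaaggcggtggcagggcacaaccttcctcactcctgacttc
Pmaip1, GRCr8 chr18:62255720-62255969, plus strand: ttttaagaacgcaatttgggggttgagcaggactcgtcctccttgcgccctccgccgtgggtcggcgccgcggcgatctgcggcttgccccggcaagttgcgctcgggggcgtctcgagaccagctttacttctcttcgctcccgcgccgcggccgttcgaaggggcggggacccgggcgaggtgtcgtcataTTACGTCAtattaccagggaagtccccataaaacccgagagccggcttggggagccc
Bad, GRCr8 chr1:213562864-213563113, plus strand: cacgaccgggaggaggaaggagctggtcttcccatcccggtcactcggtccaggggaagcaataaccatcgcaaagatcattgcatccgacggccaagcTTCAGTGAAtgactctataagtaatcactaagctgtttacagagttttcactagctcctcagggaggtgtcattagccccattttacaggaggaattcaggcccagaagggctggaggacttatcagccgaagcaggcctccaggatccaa

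Bcl2l1 has 4 annotated starts in that table, and the printed window holds TTCNNNGAA starting 94 and 13 bases before its start, with TGATGNAA starting 54 bases before it. An overlapping window of another start holds the same 3 matches, a window farther upstream holds TGATGNAA only, and the remaining window holds none of the 3 motifs. The Mcl1 window holds none of them. The Pmaip1 window holds TGACGTNA, read on the printed strand as TTACGTCA, starting 57 bases before the start, and the Bad window holds TTCNNNGAA starting 151 bases before it. Among the other windows of members, only that of Bcl2 holds a match, TGATGNAA starting 244 bases before the start. Bbc3 and Bax had no window and were not searched. These matches describe letters in the reference and not binding. The printed Bcl2l1 window is among those of its starts with the most matches. A link between these letters and the differences was not tested.

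Both effector genes fell. Bax, whose product moves from the cytosol into the mitochondrial membrane during apoptosis, measured 119 and 132 FPKM with IL-22, against 177 and 158 FPKM in controls. The IL-22 libraries lay below both controls, at 0.75 times the control mean (-0.41 ± 0.08, limma adjusted p = 0.00188). Bak1, whose product sits in the mitochondrial membrane in living cells, measured 19.7 and 18.0 FPKM with IL-22, against 29.1 and 32.3 FPKM in controls. Its groups were also apart, at 0.615 times the control mean (-0.67 ± 0.09, limma adjusted p = 0.000207). The difference of Bak1 was larger than that of Bax, but this was not tested, and their 95% intervals overlapped (-0.87 to -0.47 for Bak1 and -0.59 to -0.23 for Bax). In RefSeq GRCr8 a lncRNA gene overlaps Bak1, others overlap Bcl2 and a ribosomal protein pseudogene overlaps Bcl2l1, and since the strand of the reads was not stated, reads of overlapping genes cannot be told apart.

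**Figure D2:**
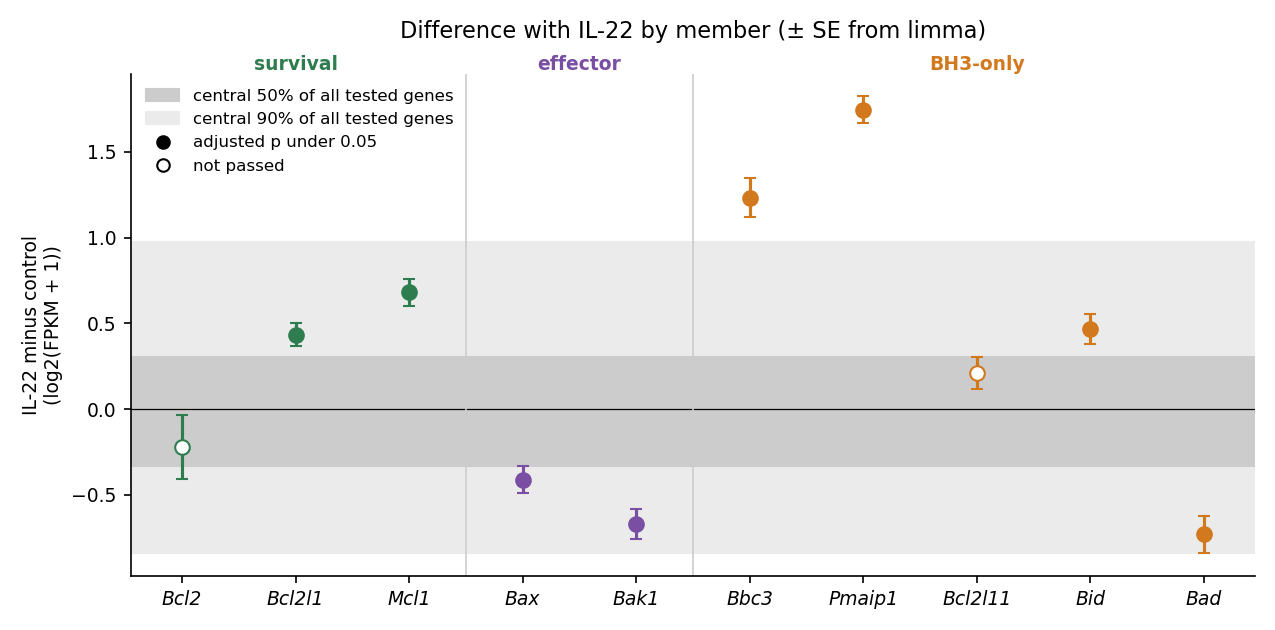
Difference in log2(FPKM + 1), IL-22 minus control, for each member, with the limma standard error as bars; filled points passed an adjusted p under 0.05, and grey bands hold the central 50% and 90% of all 9485 tested genes. Bbc3 (1.23) and Pmaip1 (1.75) lie above the band of the central 90%, which ends at 0.97, and the other members lie within it.

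The BH3-only genes moved in opposite directions. Pmaip1 encodes NOXA, which binds MCL1 and promotes its degradation. It measured 181 and 179 FPKM with IL-22, against 49.4 and 56.8 FPKM in controls. The IL-22 libraries stood far above the controls, a 3.39-fold higher mean (1.75 ± 0.08, limma adjusted p = 4.18e-07), and it ranked at place 100 from the top among the 9485 tested differences. Bbc3 encodes PUMA, which binds all the survival proteins. It measured 17.8 and 19.6 FPKM with IL-22, against 6.65 and 8.14 FPKM in controls. This was a 2.53-fold higher mean with no overlap (1.23 ± 0.11, limma adjusted p = 2.45e-05). Bbc3 stayed a low member in level, below Bcl2l11 and Bid in both groups.

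Bid, whose product is cleaved by caspase-8 and links death receptors to the mitochondrion, measured 66.5 and 64.7 FPKM with IL-22, against 43.4 and 51.3 FPKM in controls. It rose 1.39-fold with no overlap between the groups (0.47 ± 0.09, limma adjusted p = 0.00156). Bcl2l11, which encodes BIM, an activator of BAX and BAK1 that binds all the survival proteins, measured 21.9 and 21.3 FPKM with IL-22 and 17.2 and 20.0 FPKM in controls. Its groups did not overlap, but the difference did not pass (0.21 ± 0.09, 95% interval -0.001 to 0.42, limma adjusted p = 0.0809). It passed under 2 of 15 alternatives, quantile normalization (limma adjusted p = 0.0426) and leaving out control library 2 (difference 0.31, limma adjusted p = 0.0334), and without control library 1 it was 0.11. Acoxl, a gene that overlaps Bcl2l11 in RefSeq GRCr8, measured 0.116 FPKM in each IL-22 library and 0.0420 and 0.131 FPKM in controls.

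Bad encodes a sensitizer that binds BCL-XL and BCL2 and is held inactive by phosphorylation and 14-3-3 proteins when survival signals are present. It measured 37.5 and 48.2 FPKM with IL-22, against 72.9 and 69.2 FPKM in controls. Both IL-22 libraries lay below both controls, at 0.602 times the control mean (-0.73 ± 0.11, limma adjusted p = 0.000417), and Bad had the largest fall of the 10 genes. The IL-22 libraries of Bad differed more than those of any other member in FPKM apart from Bax, and its difference was -0.55 without IL-22 library 1 and -0.91 without IL-22 library 2.

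**Figure D3:**
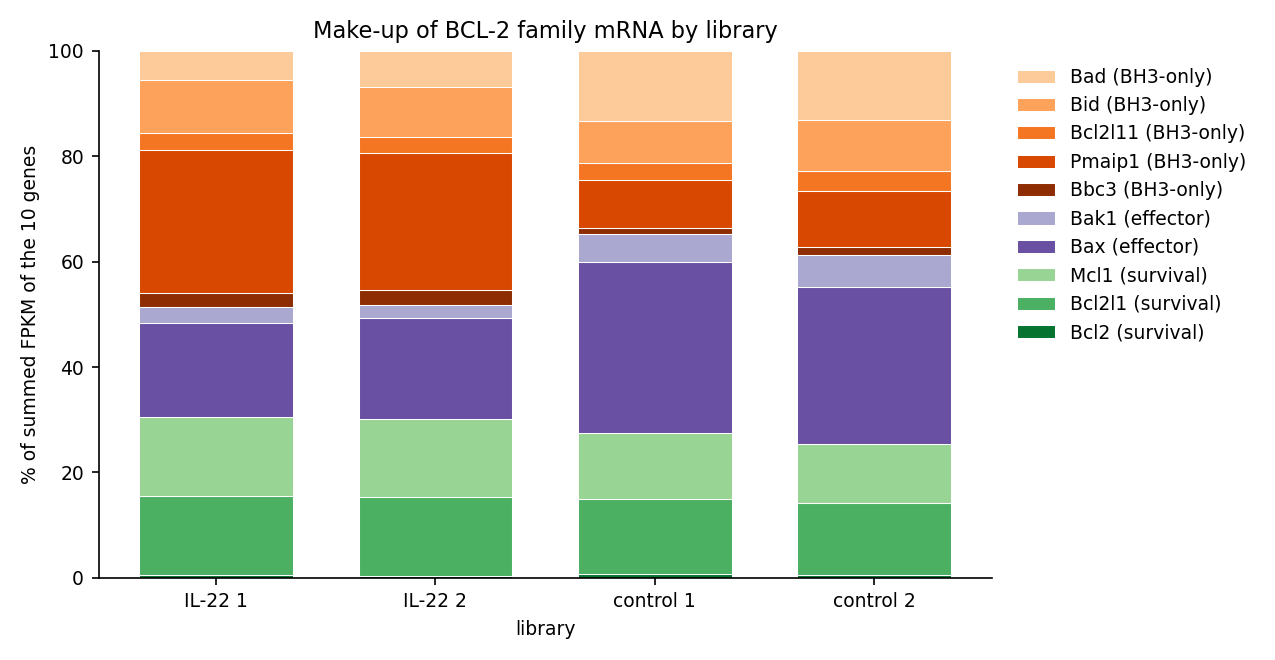
Share of each gene in the summed FPKM of the 10 BCL-2 family genes (percent, stacked to 100), with the IL-22 libraries left of the control libraries; green, purple and orange mark survival, effector and BH3-only genes. Effector genes hold 20.8% and 21.7% with IL-22 and 37.8% and 35.9% in controls, while Pmaip1 holds 27.1% and 25.9% with IL-22 and 9.08% and 10.7% in controls.

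Set against each other within a library, the roles shifted in make-up. The 10 genes summed to 667 and 691 FPKM with IL-22 and 545 and 529 FPKM in controls. Survival genes held 30.5% and 30.1% of that sum with IL-22 and 27.4% and 25.3% in controls, and BH3-only genes held 48.7% and 48.2% with IL-22 and 34.8% and 38.8% in controls. The rise of the BH3-only share rested on Pmaip1, which made up 55.8% and 53.8% of the BH3-only FPKM with IL-22 and 26.1% and 27.6% in controls. Bad went the other way, with 11.5% and 14.5% of the BH3-only FPKM with IL-22 and 38.5% and 33.7% in controls. By median difference the roles stood at 0.44 for the 3 survival genes, -0.54 for the 2 effector genes and 0.47 for the 5 BH3-only genes. No test was made of the difference between roles, since it would be a test of a score over chosen genes.

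Ratios of FPKM within a library do not depend on scaling between libraries, and they describe mRNA and not protein. The summed effector level was 0.681 and 0.719 times the summed survival level with IL-22, against 1.38 and 1.42 times in controls. By FPKM, effector mRNA thus exceeded survival mRNA in the control libraries and lay below it in the IL-22 libraries. The summed BH3-only level was 1.59 and 1.60 times the survival level with IL-22, against 1.27 and 1.53 times in controls. That difference was 0.19 on the log2 scale, where the SD of the 2 controls was also 0.19. As the groups did not overlap, leaving out 1 library could not turn its direction. The size of the difference depended on which control library was used, being 0.06 without control library 1 and 0.33 without control library 2. Without Pmaip1 the ratio was lower with IL-22, at 0.705 and 0.738, against 0.939 and 1.11 in controls, so the direction of the BH3-only to survival ratio turned on this 1 gene.

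Ratios between known binding partners were chosen after their values were seen. Bax over Bcl2l1 was 1.19 and 1.28 with IL-22, against 2.29 and 2.17 in controls. Bak1 over Mcl1 was 0.196 and 0.176 with IL-22, against 0.429 and 0.551 in controls. Bad over Bcl2l1 was 0.376 and 0.467 with IL-22, against 0.947 and 0.955 in controls. These 3 ratios were lower with IL-22 with no overlap, each combining a higher survival gene with a lower opponent. Pmaip1 over Mcl1 went the other way, at 1.80 and 1.75 with IL-22, against 0.729 and 0.969 in controls. By FPKM, Pmaip1 mRNA thus exceeded Mcl1 mRNA only in the IL-22 libraries. Bbc3 over Mcl1 was 0.177 and 0.191 with IL-22, against 0.0980 and 0.139 in controls. Bax over Bcl2, a commonly quoted ratio for this family, was 33.9 and 52.9 with IL-22 and 40.1 and 53.3 in controls. Its groups overlapped, and its log2 difference of -0.13 turned positive without IL-22 library 1 (0.20) or without control library 2 (0.08).

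**Figure D4:**
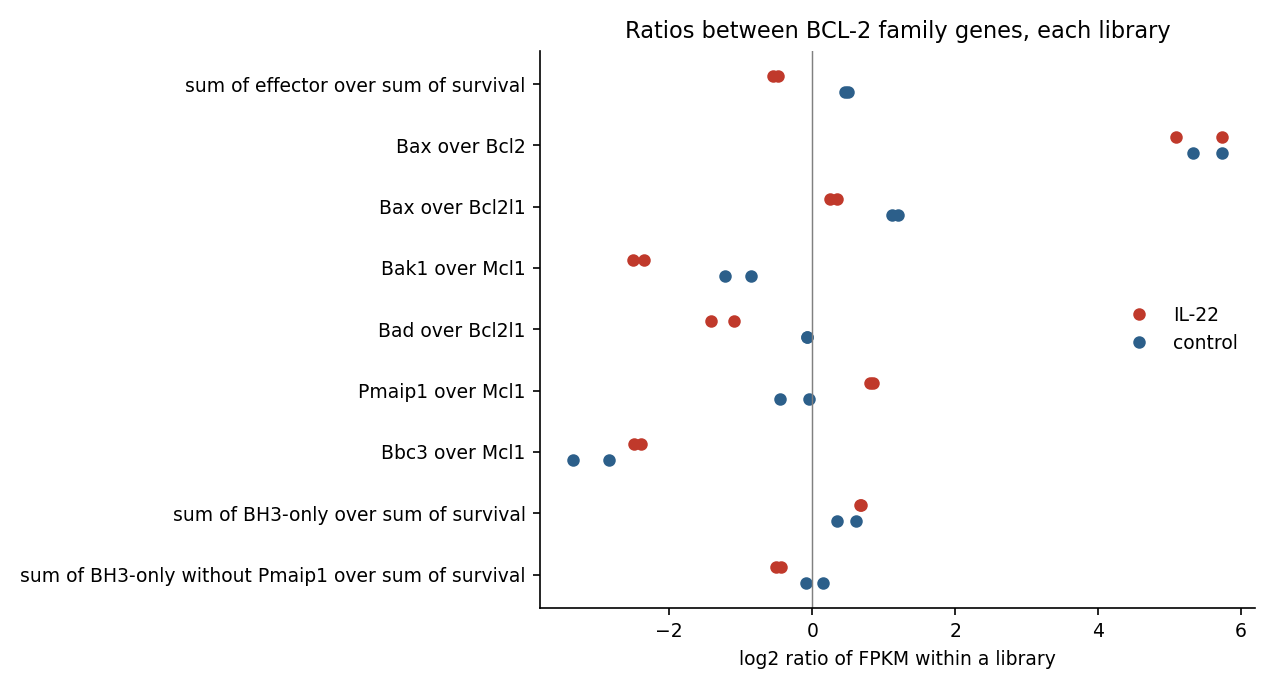
Log2 ratios of FPKM between BCL-2 family genes or sums of roles within each library, IL-22 (red) above control (blue); the grey line marks equal levels. Ratios of effectors or Bad to survival genes lie to the left with IL-22, Pmaip1 over Mcl1 lies to the right, and the groups of Bax over Bcl2 overlap.

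Other members of the family were also called in both directions, as were all tested genes (27.6% higher and 30.8% lower). Of 14 further BCL-2 family genes, 13 were analysed and 6 were tested, with 3 higher, 1 lower and 2 that did not pass (median 0.17). Bnip3, a mitophagy receptor induced by low oxygen, measured 89.4 and 90.7 FPKM with IL-22, against 47.0 and 42.3 FPKM in controls (0.998 ± 0.07, limma adjusted p = 7.26e-06). Its relative Bnip3l also rose (0.35 ± 0.08, limma adjusted p = 0.00447). The mitophagy receptor gene Bcl2l13 was higher by 0.33 (limma adjusted p = 0.0108), a call lost without the filter (limma adjusted p = 0.0513) and without control library 1 (0.21, limma adjusted p = 0.0568). Bok, an effector relative named after its values were seen, was lower (-0.32, limma adjusted p = 0.0221), and this call was lost under 4 of 15 alternatives (no filter, and leaving out IL-22 library 1 or either control library, limma adjusted p up to 0.149). Bcl2l2, which encodes the survival protein BCL-W, measured 17.1 and 18.8 FPKM with IL-22 and 18.3 and 17.1 FPKM in controls, and did not pass (limma adjusted p = 0.883). The survival gene Bcl2a1 was listed at 0 in all libraries, and the BH3-only genes Bmf, Bik and Hrk lay under 1 FPKM in all libraries.

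Downstream of the pore, of 15 genes of mitochondrial release and the apoptosome 2 were higher, 6 were lower and 7 did not pass (median -0.16). The shares over all tested genes were 27.6% higher and 30.8% lower. Cycs, which encodes cytochrome c, measured 59.2 and 49.9 FPKM with IL-22, against 85.6 and 78.6 FPKM in controls (-0.58 ± 0.09, limma adjusted p = 0.000555). Apaf1, the scaffold that cytochrome c assembles into the apoptosome, measured 7.21 and 7.28 FPKM with IL-22, against 4.89 and 4.46 FPKM in controls (0.54 ± 0.11, limma adjusted p = 0.00272, and 0.34 with a pseudocount of 5). The mitochondrial porin gene Vdac3 was lower (-0.47, limma adjusted p = 0.00703), a call lost without the filter (limma adjusted p = 0.058) and without control library 1 (-0.30, limma adjusted p = 0.0581). Of the other porin genes, named after their values were seen, the more abundant Vdac1 was higher, at 314 and 327 FPKM with IL-22, against 262 and 256 FPKM in controls (0.30, limma adjusted p = 0.00231), and Vdac2 did not pass (-0.11, limma adjusted p = 0.165).

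Of 17 transcription factors known to control BCL-2 family genes 15 were tested, of which 9 were higher, 2 were lower and 4 did not pass (median 0.42). Among all tested genes 27.6% were higher and 30.8% were lower. Ddit3 encodes CHOP, a factor of the stress response that raises Bbc3 and Bcl2l11 and lowers Bcl2 in other cells. It measured 224 and 259 FPKM with IL-22, against 50.1 and 46.3 FPKM in controls (2.30 ± 0.08, limma adjusted p = 1.47e-07). Atf4, its activator, which also acts on Pmaip1, measured 526 and 527 FPKM with IL-22, against 160 and 165 FPKM in controls (1.69 ± 0.06, limma adjusted p = 1.47e-07). E2f1, a factor of the cell cycle that can also drive apoptosis genes, fell (-1.07, limma adjusted p = 4.21e-06). Of factors named after their values were seen, Stat3, which acts on Bcl2l1 and Mcl1, rose by 0.67 (limma adjusted p = 3.95e-05), and Foxo3, which acts on Bcl2l11 and Bbc3, rose by 0.52 (limma adjusted p = 0.00278). These values stand beside those of the members, and a link between them was not tested.

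**Figure D5:**
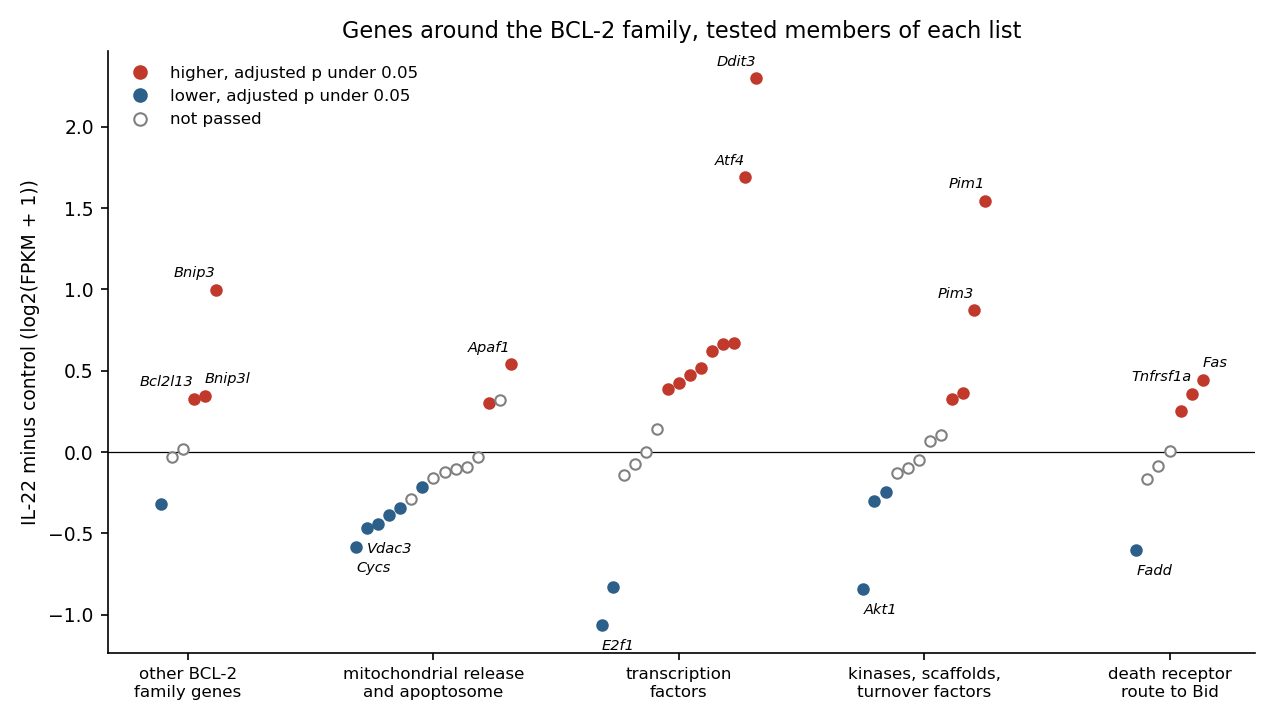
Difference in log2(FPKM + 1), IL-22 minus control, for the tested genes of 5 lists around the BCL-2 family, ordered by difference within a list; red and blue points passed an adjusted p under 0.05 and open points did not, and genes named by rule are labelled. The transcription factors hold the points farthest from 0 on both sides, Ddit3 at 2.30 and E2f1 at -1.07.

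Of 15 kinases, scaffolds and turnover factors of BCL-2 family proteins 12 were tested, of which 4 were higher, 3 were lower and 5 did not pass (median 0.01). For this list and the death receptor list below, the shares over all tested genes were again 27.6% higher and 30.8% lower. Of the kinase genes whose products phosphorylate BAD, all 3 Pim genes were higher, Akt1 was lower and Akt2 did not pass. Pim1 measured 22.4 and 21.9 FPKM with IL-22, against 6.93 and 6.92 FPKM in controls (1.55 ± 0.09, limma adjusted p = 1.74e-06), and Pim3 rose by 0.87 (limma adjusted p = 1.44e-05). Pim2, named after its values were seen like Akt2, was higher by 0.33 (limma adjusted p = 0.0365), a call lost under 4 of 15 alternatives (no filter, and leaving out control library 1 or either IL-22 library, limma adjusted p up to 0.165). Akt1 measured 72.3 and 74.8 FPKM with IL-22, against 135 and 131 FPKM in controls (-0.84 ± 0.06, limma adjusted p = 8.19e-06). The groups of Akt2 overlapped (-0.05, limma adjusted p = 0.574). On the death receptor route that ends in cleavage of Bid, 3 of 7 tested genes were higher, 1 was lower and 3 did not pass (median 0.01). The adaptor gene Fadd fell to 14.6 and 14.8 FPKM with IL-22, against 23.2 and 22.3 FPKM in controls (-0.60 ± 0.08, limma adjusted p = 0.000248), while Tnfrsf1a, a TNF receptor gene, rose by 0.36 (limma adjusted p = 0.00118). Fas was higher by 0.45 (limma adjusted p = 0.0175), a call lost without the filter, without control library 2 (0.30) and without IL-22 library 2 (0.39), with limma adjusted p up to 0.102. Casp8, the protease that cleaves Bid, named after its values were seen, was higher by 0.25 (limma adjusted p = 0.0243), a call lost on leaving out IL-22 library 1 or either control library (limma adjusted p up to 0.201). The death receptor gene Tnfrsf10b was listed at 0 in all libraries.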

How the data were processed

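Libraries were made from poly(A) RNA and read on an Illumina HiSeq sequencer, per the labels' protocols. FPKM per gene were deposited by the authors, with 1 column per library. The submitters' processing notes name rn5 as genome build and TopHat2 and Cuffdiff as tools, with no versions; annotation and filters are not stated in the sources used. Since FPKM are no counts, a count test was not applied. Relative depth came from the commonest ratio of rows under 0.15 FPKM.

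Of 17778 rows, 9485 had a mean of 1 FPKM or more and were tested on log2(FPKM + 1), which understates changes of low genes, with limma 3.58.1 under R 4.3.3 (trended eBayes without covariates, two-sided, threshold at a Benjamini-Hochberg adjusted p of 0.05). Folds are ratios of mean FPKM. As an exact permutation test of 2 against 2 libraries allows no p below 0.333, the p-values rest on spread shared across genes by limma. The fit was also run on simulated data with 200 changed genes and independent libraries, which cannot show its error rate in these libraries. Members, lists and tests were chosen with earlier results of these data known. Named were all 10 members and, per list, up to 3 genes past the threshold with the largest absolute difference; other genes were named after their values were seen. Alternatives were other pseudocounts, filters, scalings and limma settings, a replicate block, leaving out each library, and summing rows of a symbol. Some genes of the lists are counted but not reported here by name. The lncRNA table was not used here.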

Additional observations from a re-analysis of the deposited data

How the results depend on the processing

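The 8 members past the threshold kept their direction and their call under all 15 alternatives. As the groups of each did not overlap, leaving out 1 library could not turn their direction. The 4 alternatives that leave out a library leave its group with 1. They take the spread from the remaining pair and assume that the lone library varies alike. Bcl2 did not pass under any of the 14 alternatives in which it was tested, and the filter at a mean of 5 FPKM removed it. The count of higher members was 5, or 6 where Bcl2l11 passed (quantile normalization and leaving out control library 2), and that of lower members was 3 throughout. Leaving out each library gave 2101 to 2297 higher and 2377 to 2497 lower genes of all tested, and limma without the filter gave 2528 and 2553. With the replicate number as a block, 2755 genes were higher and 3070 lower, and no call of a member changed. Library 1 minus library 2 of the IL-22 group and of the control group correlated at -0.002 across genes, which are not independent replicates. Such a value shows no deviation shared by same-numbered libraries, but it cannot tell whether they were prepared together.

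The median of the effector genes was -0.56, -0.55 and -0.49 with pseudocounts of 0.1, 0.5 and 5, -0.51 with quantile normalization and -0.52 with median-of-ratios size factors, against -0.54 in the fit reported. Its spread between libraries is small because opposite moves cancel in it: leaving out a library put Bax between -0.49 and -0.33 and Bak1 between -0.74 and -0.60. The median of the survival genes was 0.56 with the filter at 5 FPKM, where Bcl2 was left out. Leaving out each library, the survival median ran from 0.39 to 0.48, the effector median from -0.55 to -0.54 and the BH3-only median from 0.35 to 0.59. The log2 ratio of summed BH3-only to survival FPKM differed by 0.06 to 0.33, and by 0.29 as a difference of mean log2 values. The Bax to Bcl2 ratio ran from -0.45 to 0.20. Absolute depth is unknown, and the number of libraries limits the precision.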
